A study of Mus musculus with 6 samples.

Results

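The cytosolic ribosomal protein genes were examined in 393P, an epithelial murine lung adenocarcinoma (LUAD) cell line, with ectopic expression of the EMT activator ZEB1 (393P_ZEB1) or with the empty vector (393P_vector). Genes were taken by name, as Rpl or Rps followed by a number and at most 1 letter out of a, l and x, with Rplp0, Rplp1, Rplp2 and Rpsa added. This gave 81 of the 24214 features in the count tables: 32 of the small subunit, 46 of the large subunit and 3 of the stalk. A filter on low counts left 78 of them among 13892 features tested. The others, Rpl3l, Rpl10l and Rpl39l, are duplicates of broadly expressed members that are known from muscle or testis, and none had more than 5 reads in any sample. The cells are KP lung cancer cells of C57BL/6 origin, and all 6 samples are transfectants grown in RPMI-1640 with 10% FCS, 3 per group. The labels do not say whether the replicates were separate cultures, so p-values cover only the spread between these samples. The promoter of the vector and the number of clones are not given in the sources used here.

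Each ribosome carries 1 copy of nearly every ribosomal protein, together with the ribosomal RNAs, and cells therefore make these proteins in matched amounts. The small subunit decodes the mRNA, the large subunit joins the amino acids, and the stalk recruits translation factors. Their mRNAs are among the most abundant in growing cells, they are short, and in mammals most begin with a C followed by a run of pyrimidines, the 5′ terminal oligopyrimidine (TOP) start through which mTORC1 and LARP1 govern their translation.

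Total counts ranged from 54442450 to 79158012 per sample. CPM is used below for reads of a gene scaled to the normalised library size. Zeb1 was at 54.9, 48.9 and 51.3 CPM in the 393P_ZEB1 samples, all above the 21.2, 22.01 and 21.4 CPM of the 393P_vector samples. The increase, 1.26 on the log2 scale (SE 0.10), passed edgeR's quasi-likelihood test with an adjusted p of 6.06e-05. Of the 9 epithelial markers tested, 8 were lower in 393P_ZEB1, while Krt8 and Krt18 were still at 585.3 and 1327 CPM on average in 393P_ZEB1. Nkx2-1, the lung lineage factor, was near 0 in both groups. Markers of blood cells, endothelial cells and fibroblasts summed to at most 4.13 CPM per list in any sample. 393P_vector replicate 3 stood apart from the other 393P_vector samples in the genes described here, so counts of calls, medians and the main genes are given with and without it.

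Most ribosomal protein genes did not pass the test, which does not show that they were unchanged. With all 6 samples, 9 of 78 were lower and 1 was higher at an adjusted p below 0.05, which is 11.5% and 1.28% of the genes, against 19.3% and 18.3% of all features tested. Without 393P_vector replicate 3 the counts were 9 lower and 10 higher, 11.5% and 12.8%, against 26.8% and 26.2%. Each of these shares of the members was below that of all features, and the difference between the shares was not tested. Leaving out other samples moved the counts too. Without 393P_vector replicate 1, 16 genes were lower and none was higher. Without 393P_vector replicate 2, 2 were higher. Without 393P_ZEB1 replicate 1, 2 or 3, the lower genes numbered 4, 4 and 5, and the single higher gene was lost without replicate 1 or replicate 3.

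The median log2 fold change of the 78 genes was -0.28, with 64 values below 0 and 14 above, against a median of -0.02 over all features tested. Without 393P_vector replicate 3 the median was -0.002, with 39 genes on each side of 0. The lean towards lower levels in 393P_ZEB1 was therefore present with that sample and not without it. By subunit, the medians with all samples were -0.41 for the small subunit, -0.23 for the large subunit and -0.60 for the stalk, and without the sample they were 0.06, -0.04 and -0.15.

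**Figure D1:**
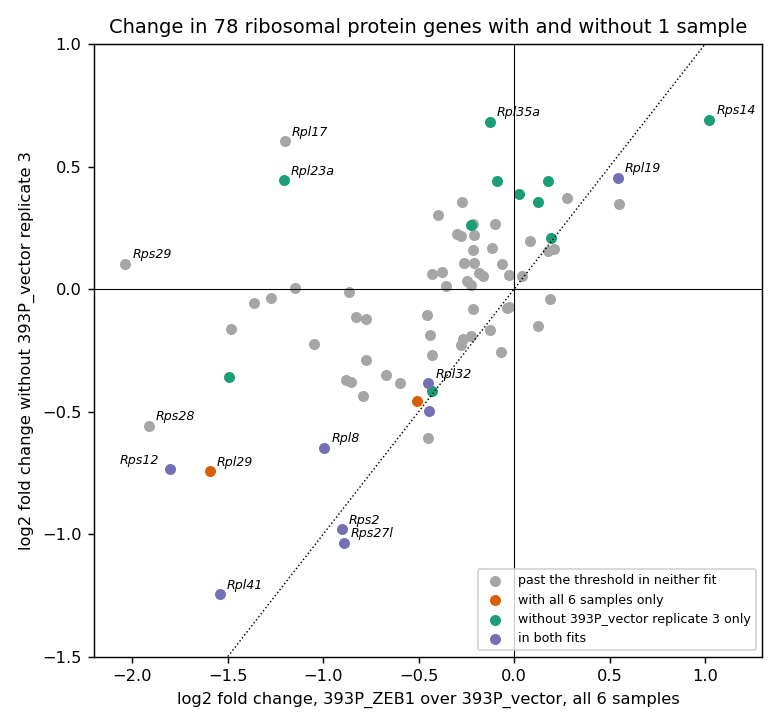
Each point is 1 of the 78 tested genes. The horizontal axis gives its log2 fold change in 393P_ZEB1 over 393P_vector with all 6 samples, and the vertical axis gives the same without 393P_vector replicate 3; colours mark the fits in which the adjusted p was below 0.05, and the dotted line marks equal values. Of the genes, 8 passed in both fits, 2 with all samples only, 11 without the sample only and 57 in neither; points far above the dotted line, such as Rps29 and Rpl17, are those whose lower level rested on that sample.

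8 genes passed the threshold in the same direction in both fits. 7 were lower, Rpl41, Rps27l, Rps2, Rpl8, Rps12, Rpl32 and Rpl36, and 1 was higher, Rpl19. No gene passed in opposite directions.

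Rpl41 encodes the smallest protein of the ribosome, a short basic peptide of the large subunit. It stood at 40.4, 47.4 and 73.8 CPM in 393P_vector and at 15.9, 19.4 and 20.3 CPM in 393P_ZEB1. The groups did not overlap, and the highest value was that of 393P_vector replicate 3. The log2 fold change was -1.54 (SE 0.23, adjusted p = 0.00165), and -1.25 without replicate 3 (adjusted p = 1.38e-05). Rpl41 was the only member that passed under every one of the 6 samples left out and all 10 other settings tried. It lies on the minus strand of chromosome 10, at chr10:128548110-128549168 of GRCm38, with 4 exons.

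Rps2, a small subunit protein beside the path by which mRNA enters the ribosome, had the highest RPKM (reads scaled by exon length and by the reads of the sample) of all members, 1453 on average over the 6 samples. Its CPM was 1835, 2128 and 1676 in 393P_vector and 795.4, 1121 and 1099 in 393P_ZEB1. All 393P_ZEB1 samples lay below all 393P_vector samples, and 393P_vector replicate 3 was not the highest. The log2 fold change was -0.90 (SE 0.17, adjusted p = 0.00419), or -0.98 without replicate 3 (adjusted p = 0.000420). Of all member counts, Rps2 alone held 17.9%, 18.7% and 12.8% in the 393P_vector samples, compared with 9.23%, 11.8% and 10.5% in the 393P_ZEB1 samples.

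Rps27l is a near copy of Rps27 and a known p53 target. It was at 112.0, 102.3 and 76.8 CPM in 393P_vector and at 58.7, 50.2 and 48.0 CPM in 393P_ZEB1, so the groups did not overlap and 393P_vector replicate 3 was the lowest of its group. The log2 fold change was -0.89 (SE 0.16, adjusted p = 0.00389) with all samples and -1.04 without replicate 3 (adjusted p = 1.09e-05). Its partner Rps27 behaved differently across the samples. Rps27 had 6.55, 6.71 and 30.8 CPM in 393P_vector and 5.40, 7.67 and 6.91 CPM in 393P_ZEB1, a log2 fold change of -1.15 that did not pass (adjusted p = 0.165) and was 0.0062 without replicate 3. Here a single sample made the group mean, and the difference between the partners' changes was not tested.

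Rpl32, a large subunit protein, is the gene to which the study normalised its quantitative PCR. Its CPM was 315.8, 305.2 and 353.4 in 393P_vector and 238.2, 240.8 and 235.1 in 393P_ZEB1. The samples within each group were close and the groups did not overlap. The mean fell from 324.8 ± 25.3 CPM to 238.0 ± 2.84 CPM (SD, n = 3 each), a log2 fold change of -0.45 (SE 0.10, edgeR adjusted p = 0.00999), or -0.38 without 393P_vector replicate 3. The call was lost without 393P_ZEB1 replicate 3 (adjusted p = 0.0561). Rpl32 lies at chr6:115805514-115808743, minus strand, with 4 exons, and its interval overlaps Cand2 on the plus strand. Whether the counting used strand is not given in the sources used here, so reads from the overlap cannot be assigned to either gene.

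Rpl8, which contacts the catalytic centre of the large subunit, was at 467.3, 510.9 and 889.5 CPM in 393P_vector and at 284.0, 307.6 and 345.1 CPM in 393P_ZEB1. Its log2 fold change was -0.996 (SE 0.24, adjusted p = 0.0150), and -0.65 without 393P_vector replicate 3 (adjusted p = 0.000232). The groups did not overlap with or without that sample. Without 393P_ZEB1 replicate 1 or 2 the adjusted p was 0.0731 and 0.0605.

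Rps12, a small subunit protein, had 35.6, 35.8 and 152.7 CPM in 393P_vector and 14.2, 25.7 and 24.3 CPM in 393P_ZEB1. The groups did not overlap, but 393P_vector replicate 3 alone was more than 4-fold above its group's other samples. Its log2 fold change of -1.80 (SE 0.59, adjusted p = 0.0447) was -0.74 without it (adjusted p = 0.0373), and the call was lost without any 1 of the 393P_ZEB1 replicates, where the adjusted p ranged up to 0.164. It was also lost under 5 of 10 other settings, such as library size without TMM (adjusted p = 0.0522), voom (0.0525) and no filter (0.137). Snora33, a small nucleolar RNA within the interval of Rps12, was also lower, by a log2 fold change of -1.47 (adjusted p = 0.0253), and by -0.79 without 393P_vector replicate 3.

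Rpl36, chosen here after its values were seen, was at 31.3, 32.4 and 28.7 CPM in 393P_vector and at 21.1, 23.5 and 23.3 CPM in 393P_ZEB1. Its log2 fold change was -0.45 (SE 0.11, adjusted p = 0.0166), with groups that did not overlap. The call held without 393P_vector replicate 3 (adjusted p = 0.00135) and was lost when any 1 of the other samples was left out, where the adjusted p was at most 0.0653.

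Rpl19, which forms a bridge between the subunits, was the only member higher in both fits. It was at 120.2, 126.3 and 101.3 CPM in 393P_vector and at 192.5, 138.2 and 175.9 CPM in 393P_ZEB1. The groups did not overlap, and the spread was wider in 393P_ZEB1. Expressed as a log2 fold change this was 0.54 (SE 0.15, adjusted p = 0.0249), or 0.45 without 393P_vector replicate 3 (adjusted p = 0.0127). It did not pass without 393P_vector replicate 1 or without 393P_ZEB1 replicate 1 or 3, where the adjusted p lay between 0.0520 and 0.0944.

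**Figure D2:**
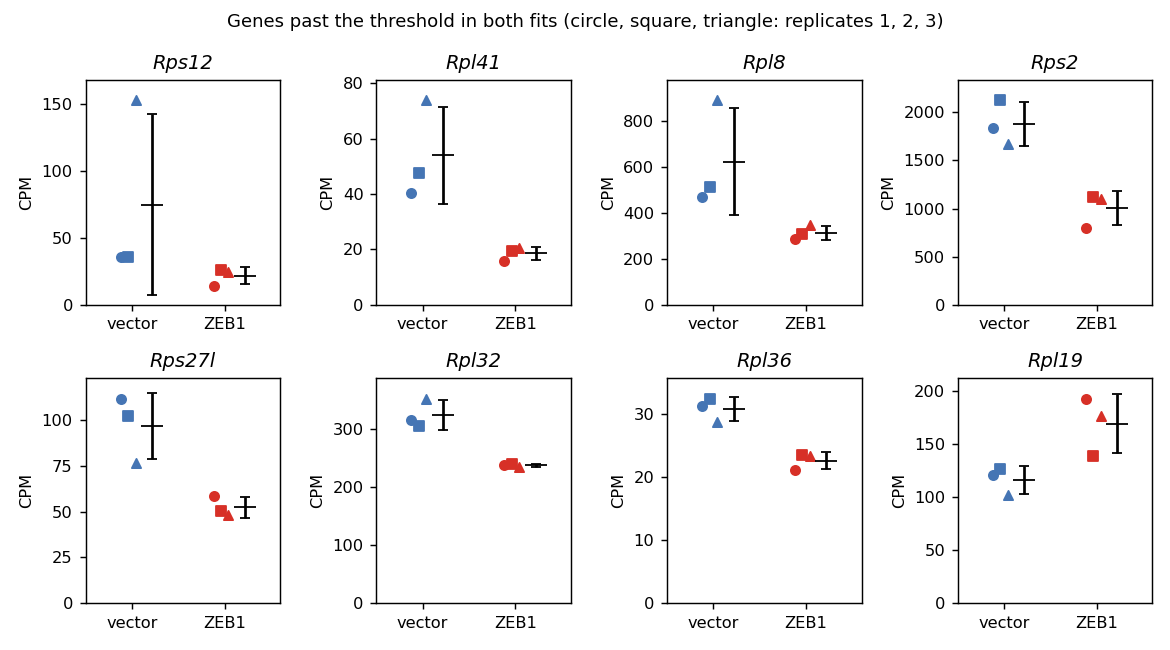
CPM (vertical axis, from 0) in each of the 3 samples per group for the 8 genes that passed in both fits. Circles, squares and triangles are replicates 1, 2 and 3, and the bar beside them is the mean with its SD. In all 8 genes the groups do not overlap, and the triangle of 393P_vector stands far above the other samples in Rps12, where it is at 152.7 CPM.

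Other genes on the chromosomes of these members leaned the same way. The other tested genes on the chromosome had a median log2 fold change of -0.43 for Rps2 and Rpl36 (chromosome 17), -0.36 for Rpl32 (chromosome 6), -0.33 for Rpl8 (chromosome 15), -0.29 for Rpl41 and Rps12 (chromosome 10), -0.13 for Rps27l (chromosome 9) and 0.27 for Rpl19 (chromosome 11). The changes of Rpl36 and Rpl32, both -0.45, were close to those of their chromosomes. Those of Rpl41, Rps12, Rpl8, Rps2, Rps27l and Rpl19 were larger than those of theirs. Whether the chromosome had a part in these calls was not tested.

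2 genes passed with all samples and not without 393P_vector replicate 3. Rpl29, a large subunit protein, had 27.3, 27.7 and 93.5 CPM in 393P_vector and 10.0, 20.8 and 18.5 CPM in 393P_ZEB1, a log2 fold change of -1.59 (SE 0.52, adjusted p = 0.0452) that became -0.74 without the sample (adjusted p = 0.0682). Rpl18, a large subunit protein named here after its values were seen, had a log2 fold change of -0.51 (SE 0.17, adjusted p = 0.0487), and -0.46 without it (adjusted p = 0.0597). In Rpl29 the sample changed the size of the difference, and in Rpl18 mainly its place beside the threshold. Rpl29 passed in 2 and Rpl18 in 1 of the 6 fits with a sample left out, and each in 5 of 10 other settings. Without 393P_ZEB1 replicates 1, 2 and 3 in turn, the adjusted p of Rpl29 was 0.161, 0.0873 and 0.109.

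11 genes passed only without 393P_vector replicate 3, and apart from those on the naming list they are given here after their values were seen. Rpl31 and Rps15 were lower, by -0.36 and -0.42 on the log2 scale. The 9 higher were Rps14 (0.69), Rpl35a (0.68), Rpl23a (0.45), Rpl26 (0.44), Rpl24 (0.44), Rpl37a (0.39), Rpl27a (0.35), Rpl5 (0.26) and Rps27a (0.21). Rpl23a, at which the signal recognition particle docks beside the exit tunnel, shows how the direction depended on the sample. It stood at 29.3, 24.9 and 200.7 CPM in 393P_vector and at 33.7, 33.8 and 43.2 CPM in 393P_ZEB1, so its log2 fold change was -1.21 with all samples (adjusted p = 0.241) and 0.45 without replicate 3 (adjusted p = 0.0154). Rpl5, which with Rpl11 and a ribosomal RNA forms a particle that can bind Mdm2, changed sign in the same way, from -0.23 to 0.26, while Rpl11 went from -0.23 to 0.018 and passed in neither fit.

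Rps14, a protein of the small subunit platform, was the member with the largest positive value. Its CPM was 483.2, 575.1 and 206.2 in 393P_vector and 864.2, 700.5 and 1000 in 393P_ZEB1. All 393P_ZEB1 samples lay above all 393P_vector samples, and 393P_vector replicate 3 was the lowest of all. The difference of 1.02 on the log2 scale (SE 0.35, adjusted p = 0.0514) did not pass, whereas that of 0.69 without replicate 3 did (adjusted p = 0.00347). Other genes on its chromosome had a median of 0.64.

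Counted by samples alone, 16 members (20.5%) had all 393P_ZEB1 values below all 393P_vector values, against 26.5% of all features tested. 3 members, Rpl19, Rps14 and Rps27a, had all of them above (3.85%), against 26.3%. Neither share exceeded that of all features.

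393P_vector replicate 3 had more reads on ribosomal protein genes than any other sample, and the difference lay in particular members. Relative to the mean log2 CPM of 393P_vector replicates 1 and 2, its median over the 78 genes was 0.78 higher, with a range from -1.35 (Rps14) to 3.47 (Rps29). It was at least 2-fold above in 29 members, 37.2%, against 5.12% of all features, and at least 2-fold below in 2 members, Rps14 and Rplp1, 2.56%, against 3.28%. It was the highest of the 6 samples in 58 members, 74.4%, against 28.0%. Between 393P_vector replicates 1 and 2 the median difference was 0.10. These values compare single samples and carry no test.

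Rps29, a zinc-binding protein of the small subunit head, was the most extreme. It had 1.66, 1.84 and 19.5 CPM in 393P_vector, 11.1-fold higher in replicate 3 than in replicates 1 and 2, and 1.57, 2.20 and 1.87 CPM in 393P_ZEB1. Without replicate 3 the 393P_vector values lay within the range of 393P_ZEB1. Rpl17, which lines the exit tunnel, was 8.46-fold higher in replicate 3 and Rpl23a 7.43-fold. After these 3 came Rps28, Rpl34, Rpl30, Rplp2, Rps27, Rpl31 and Rps12, each at least 4-fold higher. These genes are named here after their values were seen. None of the 10 but Rps12 passed the test with all samples, although their log2 fold changes ran from -1.15 to -2.04. In all 10 the SD within 393P_vector was larger than the difference between the group means.

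**Figure D3:**
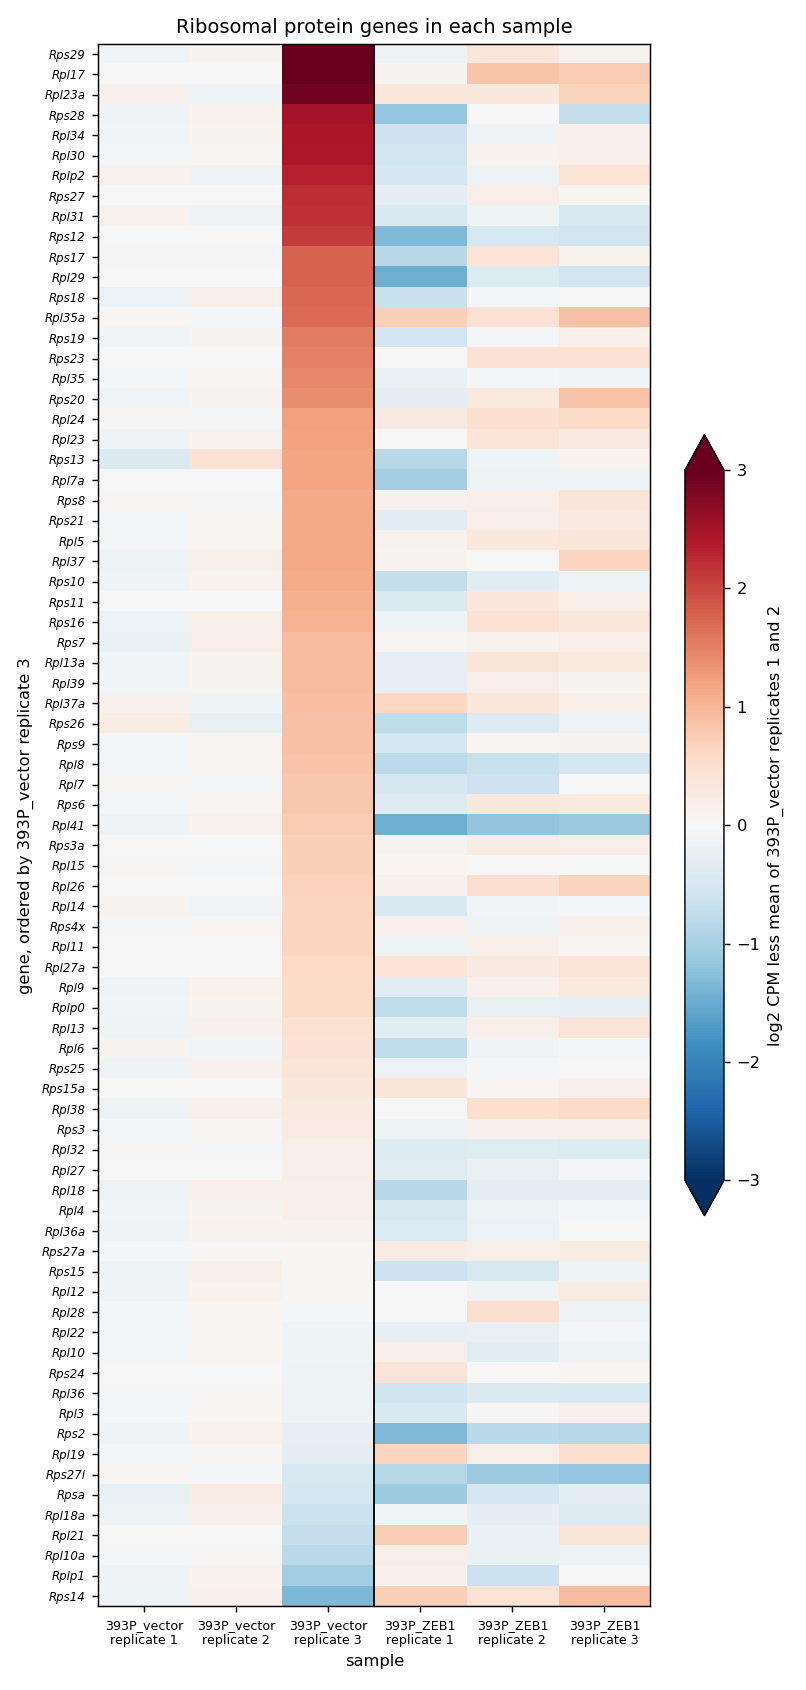
Log2 CPM of 77 of the tested genes (rows) in each of the 6 samples (columns), less the mean of 393P_vector replicates 1 and 2 for that gene; red is higher and blue is lower. Rows are ordered by 393P_vector replicate 3, whose values run from 3.47 for Rps29 at the top to -1.35 for Rps14 at the bottom.

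Exon length moved with these values. Among members with 301 to 700 bases of exon, the median of 393P_vector replicate 3 was 1.05 above its group's other samples (40 genes, 52.5% at least 2-fold above), and among 355 other genes of that length it was 0.84 (43.7%). Among other genes over 4000 bases it was -0.10 (1.32%). The 238 other genes of at most 300 bases did not follow this order, with a median of -0.085 (10.1%). Members and other genes of 301 to 700 bases were thus both higher in that sample, but their values were not alike in every class. At 301 to 500 bases members were below other genes (0.89 against 1.17), and at 501 to 700 bases above them (1.12 against 0.71). At 701 to 1000 bases the medians were 0.66 and 0.48, and at 1001 to 2000 bases 0.50 and 0.10. The 76 mitochondrial ribosomal protein genes also had a median of 0.49. In the class of 301 to 700 bases the median log2 fold change with ZEB1 was -0.45 for members and -0.40 for other genes, and without replicate 3 it was -0.05 and -0.06. Over the 78 members, which share the same libraries, the difference of replicate 3 had a Spearman rho of -0.30 with exon length. Its rho with the level in replicates 1 and 2 was -0.62. That level is itself subtracted in the difference, so a negative rho is partly set by the calculation and no conclusion is drawn from it. The part of length, and of how the library was made, in the high values of replicate 3 was not tested.

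**Figure D4:**
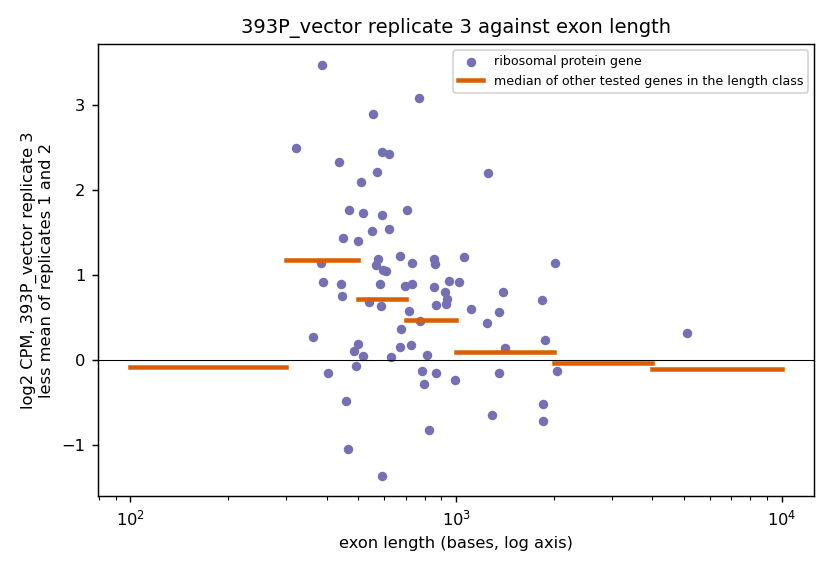
Log2 CPM of 393P_vector replicate 3 less the mean of replicates 1 and 2 (vertical axis) against exon length in bases (horizontal log axis). Points are the 78 tested ribosomal protein genes and bars are the medians of the other tested genes in each length class. The shortest class is drawn from 100 bases and the longest, which has no upper limit, to the end of the bar. The bar of the shortest class is at -0.085, and from there on bars fall from 1.17 at 301 to 500 bases to -0.10 above 4000 bases, and most points of short members lie above 0.

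Summed over all 81 members, the share of counts was 1.002%, 1.119% and 1.38% in 393P_vector and 0.847%, 0.953% and 1.04% in 393P_ZEB1. The mean was 1.17% ± 0.193 in 393P_vector and 0.947% ± 0.0976 in 393P_ZEB1 (SD, n = 3 each), a difference of -0.219 percentage points, or -0.113 without 393P_vector replicate 3. The groups overlapped in this share. Rps2 alone made up much of the difference without replicate 3. It held 17.9% and 18.7% of the member counts in 393P_vector replicates 1 and 2, and 9.23%, 11.85% and 10.5% in 393P_ZEB1. In these bulk samples a lower share cannot be told apart from fewer cells of a type or from more RNA of other genes per cell.

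The proteins are needed in near equal numbers, but the measured levels per length were far apart. RPKM of the tested members spanned between 9.11 and 10.0 log2 units within a sample, from Rps15a, at 2.28 on average, to Rps2 or Rps14. After Rps2 the highest mean RPKM were those of Rps14 (1078), Rplp1 (682.0) and Rpl4 (620.8). Rps15a was divided by an exon length of 5129 bases, the longest of any member. The spread over members, the SD of log2 RPKM, was 1.86 and 1.88 in 393P_vector replicates 1 and 2 and 1.47 in replicate 3, below the 1.78 to 1.91 of 393P_ZEB1. 393P_ZEB1 replicate 1 was the lowest of the 6 samples in 43 members. The same count was not made over all features, so it cannot be called particular to the members.

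Many members have near-identical copies elsewhere in the genome, which bears on these levels. In GENCODE M21, a median of 53.5% of the 50-base windows in the transcripts of a tested member also occurred in another gene, with a range from 0% to 95.1%, and 77 of the 78 shared a window with a pseudogene. How such reads were counted is not given in the sources used here. Among the genes with results above, 7.86% of windows were shared for Rpl8, 22.4% for Rps27l and 30.6% for Rpl32. For Rpl41 the share was 53.1%, for Rpl19 73.9%, for Rps2 79.03%, for Rpl36 81.1% and for Rps12 83.5%, so the levels of these last genes are uncertain. The count tables listed 6 tested ribosomal protein pseudogenes, none of which passed in the fit with all samples, while 1 was higher without 393P_vector replicate 3. Their 393P_vector replicate 3 was higher by a median of 1.53. 1 of the 6, Rpl34-ps1, overlaps its parent Rpl34 on the same strand. It was at 3.62, 3.79 and 22.5 CPM in 393P_vector, beside 4.08, 4.59 and 23.6 CPM for Rpl34. Whether both features held the same reads was not tested.

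The other singly examined members did not pass with all samples in edgeR. Of the stalk, Rplp0, which anchors it, had 271.6, 307.4 and 428.7 CPM in 393P_vector and 171.7, 248.6 and 245.1 CPM in 393P_ZEB1, groups that did not overlap, with a log2 fold change of -0.60 (SE 0.21, adjusted p = 0.0578), or -0.38 without 393P_vector replicate 3 (adjusted p = 0.0712). Rplp1 had 0.12 and Rplp2 -1.27, and 393P_vector replicate 3 was the lowest sample for Rplp1 and the highest for Rplp2. The members of the stalk thus did not move together in that sample.

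Rpsa, a small subunit protein also known as the laminin receptor, had 627.5, 851.0 and 510.1 CPM in 393P_vector and 346.7, 515.7 and 593.2 CPM in 393P_ZEB1. The groups overlapped (log2 fold change -0.45, adjusted p = 0.187), and without 393P_vector replicate 3 the value was -0.61 (adjusted p = 0.0752). Rps27a, made as a fusion with ubiquitin, was at 97.2, 100.5 and 102.9 CPM in 393P_vector and at 116.9, 111.6 and 114.5 CPM in 393P_ZEB1, a narrow spread with no overlap, and its log2 fold change of 0.19 did not pass with all samples in edgeR (adjusted p = 0.133), while that of 0.21 without 393P_vector replicate 3 did (adjusted p = 0.0330), as did that of limma voom. Of the 4 members on the X chromosome, Rps4x, Rpl10, Rpl39 and Rpl36a, none passed in either fit, with values from -0.04 to -0.36. Rps6, the substrate of S6 kinase (-0.21), Rpl3 of the catalytic centre (-0.03), Rpl13a, known from translational silencing after interferon (-0.22), and Rpl22 (-0.13) did not pass, and neither did Rpl4 (-0.28), which was among the most abundant. Without 393P_vector replicate 3 their values were 0.11, -0.075, 0.16, -0.17 and -0.23, and none passed.

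The starts of some members are shown because the TOP start is what these genes are known to share and the naming rule did not use it. RefSeq entries for GRCm38.p6 were found for 60 of the 81 members. On the strand of the gene, an annotated start with a C followed by 4 pyrimidines was found in 13 of them (21.7%), against 2.97% of 26965 other genes with an entry. Each line gives the 10 bases before the annotated start and the 15 from it on, 5′ to 3′, with the run of at least 5 pyrimidines that begins within 5 bases of the start in capitals. The 4 sequences that come first are from the 13 members with the C start and belong to members high in 393P_vector replicate 3. The last 3 belong to members lower in 393P_ZEB1 in both fits. Others of the 13, such as Rpl28, Rpl38 and Rps15a, were not 2-fold above replicates 1 and 2 in replicate 3. Rps28, Rpl34, Rpl31 and Rps12 were at least 4-fold above without the C start. The sequences shown therefore cannot tell whether the start and the level in replicate 3 go together.
Rps27: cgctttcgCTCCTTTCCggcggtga
Rplp2: cagcgTCTTCCTTTCgccgccggac
Rps18: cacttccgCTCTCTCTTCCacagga
Rpl35a: gcttgCCTTCCTCTTTCCgccatct
Rps2: gtcgagatctcgcgCTTCTTggagc
Rps27l: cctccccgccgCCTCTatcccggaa
Rpl41: gggccggctcggaagtgacgacacc
Those of Rps27 (chr3:90213634-90213658) and Rps18 (chr17:33955651-33955675) are on the minus strand, as is that of Rpl41 (chr10:128549154-128549178). Those of Rplp2 (chr7:141447641-141447665), Rpl35a (chr16:33056472-33056496), Rps2 (chr17:24720053-24720077) and Rps27l (chr9:66946076-66946100) are on the plus strand. A run that begins within 5 bases of the start was found in 41.7% of members and 25.3% of other genes. Annotated starts can lie some bases from the true start, so a missing run says only that these letters are not in the window.

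The 13 members with the C start had a median of 1.117 in 393P_vector replicate 3 over its group's other samples and the other 44 tested members with an entry a median of 0.64. Their median log2 fold changes with ZEB1 were -0.43 and -0.26, and without that sample 0.03 and -0.08. These medians are given without a test.

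Related genes of the ribosome were taken from lists, whose counts stand beside the 18.3% higher and 19.3% lower of all features tested, or 26.2% and 26.8% without 393P_vector replicate 3. Of 7 tested ribosomal protein genes on a list of duplicates and irregular names (Rps3a among them, itself a member), 2 were higher and 1 was lower. Rpl22l1, the duplicate of Rpl22, rose from 4.03 ± 1.16 to 7.68 ± 1.36 CPM (log2 fold change 0.93, adjusted p = 0.0195), and Rpl36al, the duplicate of Rpl36a, from 30.8 ± 0.808 to 45.9 ± 5.31 CPM (0.57, adjusted p = 0.00721). Rpl7l1, related to Rpl7, fell from 110.0 ± 11.3 to 68.6 ± 2.10 CPM (-0.68, adjusted p = 0.00205; SD, n = 3 each). All 3 passed without 393P_vector replicate 3 too.

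Of 18 translation factors with TOP mRNAs, 1 was higher and 4 were lower with all samples, against 5 and 6 without 393P_vector replicate 3. Eef1a1, which carries aminoacyl-tRNA to the ribosome, was higher by 0.44, whereas Eef2, which moves the ribosome along the mRNA, was lower by -0.47, Eef1d by -0.47 and Eif3l by -0.75. Of 95 ribosome assembly genes, 6 were higher and 23 were lower, with a median of -0.17, and without 393P_vector replicate 3 the counts were 16 and 40. The lower included Bop1 (-0.90) and Bysl (-0.88), which act in the maturation of the large and of the small subunit, and Nhp2l1 (-0.74). The higher included Nop16 (0.50), Riok1 (0.47) and Nop58 (0.39). Rn45s, the precursor of the ribosomal RNAs, was taken from a list on RNA quality and library type, not from the assembly list. It was at 6480 ± 1444 CPM in 393P_vector and 4175 ± 404 CPM in 393P_ZEB1 (SD, n = 3 each). The 393P_vector samples were at 5663, 5630 and 8148 CPM, with replicate 3 the highest. The log2 fold change was -0.63 (edgeR adjusted p = 0.0242), and without replicate 3 it was -0.44 (adjusted p = 0.00432). Whether its reads came from the precursor itself or from the ribosomal RNAs cut from it was not tested. The translation factors and assembly genes named here passed without 393P_vector replicate 3 too.

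Of 76 mitochondrial ribosomal protein genes, 5 were higher and 16 lower, with a median of -0.36. Without 393P_vector replicate 3 the counts were 12 and 21 and the median was -0.15. Mrps35 (21.8 CPM on average in 393P_vector and 10.9 CPM in 393P_ZEB1), Mrpl18 (-0.99) and Mrps10 (-0.92) had the lowest values among those that passed, and Mrpl27 (0.76), Mrpl24 (0.75) and Mrps6 (0.65) the highest. Of 32 regulators of ribosomal protein synthesis, 5 were higher and 4 lower, against 8 and 8 without that sample. Mxd4 (1.47), Mxd3 (1.45) and Mxi1 (1.11), which compete with Myc for Max, were higher, and Mycn (-1.82), at no more than 0.314 CPM on average, Eif4ebp2 (-0.65) and Tia1 (-0.51) were lower. The genes named from both lists passed in either fit. Of 31 small nucleolar RNAs that lie within 22 members, Snord58b in Rpl17 was higher (0.76) and Snora33 in Rps12 was lower, against 3 higher and 4 lower without 393P_vector replicate 3. Their median in 393P_vector replicate 3 was -0.50 against 0.78 for the members.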

How the data were processed

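SOLiD libraries were made from total RNA of 6 samples, 3 per group. For each of them the authors deposited raw counts of reads on 24214 RefSeq features and their RPKM, with coordinates of GRCm38. The deposited RPKM were not used. RPKM given here was computed from the counts, as CPM on the normalised library size per kilobase of exon length. It served only to compare levels between genes. The aligner, the counting program and its use of strand and of reads with several matches are not given in the sources used here. 1159 features stood at more than 1 locus, none of them a member.

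Counts were tested in R 4.3.3 with edgeR 4.0.16 (quasi-likelihood, robust, TMM, filterByExpr with a minimum count of 10), over 13892 features. Benjamini-Hochberg adjustment covered all of these, and genes with an adjusted p below 0.05 were called. BCV, the biological coefficient of variation, came to 0.184. Log2 CPM of single samples used a prior count of 0.5. Levels of 3 counts corresponded to between 0.0361 and 0.0561 CPM, which covers counting error only. Alternatives used DESeq2 1.42.0 and limma 3.58.1 and the other settings named in the closing section. Steps were tested on simulated data. Other steps used Python 3.11.15, pandas 2.3.3 and matplotlib 3.10.9. Start sequences came from RefSeq and transcript windows from GENCODE M21.

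Members and lists were chosen with earlier results of these data known. Genes named were the 6 highest and 6 lowest log2 fold changes among members past the threshold with groups that do not overlap, a list of members of known special roles, the 5 members of highest mean RPKM, and the 3 highest and 3 lowest of each other list past the threshold. Others are said to be chosen after their values were seen. Values of some genes that these rules cover are not reported here.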

Additional observations from a re-analysis of the deposited data

How the results depend on the processing

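The number of members higher in 393P_ZEB1, 1 as reported, was 2 with library size without TMM, 2 with TMM computed without the members, 2 with DESeq2's Wald test, 10 with limma voom and sample weights, 2 with single-locus features only, 0 against a fold of 1.5 and 0 at an adjusted p below 0.01, and ranged from 0 to 10 when 1 sample was left out. The number lower, 9 as reported, was 16 with DESeq2, 14 with the replicate number as a block (replicate block) and 10 with voom. It was 6 with library size without TMM, 8 with TMM computed without the members and 8 with single-locus features only. With no filter it was 7, and with at least 10 counts in every sample 6. It was 1 against a fold of 1.5 and 4 at an adjusted p below 0.01, and ranged from 4 to 16 when 1 sample was left out. Under the replicate block Rplp0 passed (adjusted p = 0.0247) and Rpl36 did not (0.0505). Deviations of samples with equal replicate numbers from their group means correlated with r of 0.195, -0.126 and -0.0276. Those with unequal numbers ranged from -0.120 to 0.157. The deviations were taken within groups of 3, which constrains these values, so they cannot settle whether the samples were paired. Over all features, 2539 higher and 2679 lower became 3977 and 4094 with voom, 1081 and 1118 against a fold of 1.5, and 1584 and 1545 at 0.01, and the lower ranged from 1784 to 3776 when 1 sample was left out. The median of members was 0.01 with voom, which gave 393P_vector replicate 3 a weight of 0.111, and ranged from -0.46 to -0.002 when 1 sample was left out; it was -0.30 less the median of each chromosome and, chosen after seeing the data, -0.09 less the median of other genes of like exon length. Among the members followed singly under every setting, log2 fold changes that changed sign under voom were those of Rplp1 (-0.22), Rps4x (0.038), Rpl5 (0.29), Rpl11 (0.044), Rps6 (0.19), Rpl3 (0.012), Rpl39 (0.075), Rps27 (0.0080) and Rpl13a (0.23). When 1 sample was left out, values ranged from -0.15 to 0.37 for Rplp1, -0.31 to 0.068 for Rps4x, -0.20 to 0.088 for Rpl10, -0.44 to 0.26 for Rpl5, -0.34 to 0.018 for Rpl11, -0.37 to 0.11 for Rps6, -0.13 to 0.14 for Rpl3, -0.54 to 0.013 for Rpl39, -1.49 to 0.0062 for Rps27 and -0.39 to 0.16 for Rpl13a. The cause of these changes was not tested, beyond the sample left out.

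The 78 tested members lay above the level of 3 counts in every sample. With 3 samples per group, the calls changed with the sample left out, for samples of either group. Reads shared with pseudogenes and a use of strand that is not stated limit the level of single members.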
